A study of Mus musculus with 12 samples.

Results

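Cytochrome P450 families 1 to 4 were followed across the deposited gene count table of cultured mouse ileal epithelium. A gene was taken as a member when its name was Cyp, 1 digit from 1 to 4, 1 lower-case letter and a number with nothing after it. This gave 48 genes of 20 subfamilies among 18068 genes, and 4 further names of the same families that carry a suffix were left out. The cultures were enteroids, self-organising epithelial cultures, grown from the ileum of wild-type C57Bl/6 mice. They were left untreated, given 1 mM butyrate for 48 h, given 20 ng/mL IL-13 for 72 h, or given both agents, with 3 libraries in each of the 4 groups. Directional poly(A) RNA sequencing gave reads per gene, so RNA and not protein or enzyme activity was measured. The labels do not say whether the 3 libraries of a group came from separate cultures or animals, so p-values measure the spread between these libraries, which may be technical.

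Cytochromes P450 are heme-containing enzymes of the endoplasmic reticulum that insert an oxygen atom into their substrates, with electrons passed on from P450 oxidoreductase (Por). Families 1 to 3 are best known for oxidising drugs, dietary chemicals and steroids, and their transcription is controlled by receptors such as the aryl hydrocarbon receptor (Ahr), the pregnane X receptor (Nr1i2) and the constitutive androstane receptor (Nr1i3). Subfamilies Cyp2c and Cyp2j also make epoxides of arachidonic acid, and family 4 hydroxylates fatty acids and leukotrienes at their far end. In the small intestine these enzymes sit mainly in absorptive enterocytes, where they meet swallowed compounds before the liver does.

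Library totals ran from 13867982 to 24294456 counts, and the IL-13 libraries (14239405 to 15008598) and butyrate + IL-13 libraries (13867982 to 15618074) were shallower than all 6 libraries without IL-13. Levels are given as CPM, counts relative to library size, with library sizes scaled by the trimmed mean of M-values (TMM). Enterocyte markers matched the epithelial label, with 12 of 12 detected in each group and summed levels of 6265 to 6938 CPM in untreated libraries, 8627 to 9412 in butyrate, 8797 to 9305 in IL-13 and 10323 to 13809 in combined ones. Single markers went both ways, with 5 of the 12 called higher and 2 lower with IL-13, and 5 and 1 with butyrate. Adding butyrate to IL-13 gave 5 higher and 2 lower, and adding IL-13 to butyrate 4 and 2. Markers of proliferating cells summed to 620 to 636 CPM in untreated libraries, 525 to 631 in butyrate, 196 to 270 in IL-13 and 157 to 169 in combined ones, and all 6 of 6 fell with IL-13. Tuft cell markers summed to 15.1 to 20.95 CPM untreated and 63.4 to 74.3 with IL-13, where 6 of 7 tested rose, and to 14.3 to 18.2 with both, where 5 of 7 were lower than with IL-13. Enteroendocrine markers summed to 975 to 1303 CPM untreated and 429 to 526 with butyrate, where 4 of 6 fell, and to 161 to 288 with both against 1125 to 1219 with IL-13, where 6 of 6 fell. When butyrate was added to IL-13, 6 of 7 goblet cell markers fell (3481 to 4477 CPM against 2140 to 2177), as did 4 of 5 tested Paneth cell markers, 1 rising (2741 to 3786 against 1390 to 2076). Each agent alone also moved some of them. IL-13 raised 1 and lowered 3 goblet cell markers, and butyrate raised 0 and lowered 4. Of the Paneth cell markers, IL-13 raised 1 and lowered 3, and butyrate raised 1 and lowered 0. The shares of all genes called are given below. Hepatocyte markers summed to at most 3.66 CPM in any library, and markers of mesenchymal, immune and endothelial cells to at most 9.47. The part of these shifts in the P450 differences was not tested, and in bulk RNA fewer cells of a type and less RNA per cell cannot be told apart. Lars2, which encodes the mitochondrial leucyl-tRNA synthetase, stood at 422.8 to 1434 CPM in 10 libraries, at 5048 in butyrate library 2 and at 6983 in butyrate + IL-13 library 3.

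Of the 48 P450 genes, 29 had enough counts to be tested and 19 were too low to judge. The 19 summed to between 1 and 72 counts over the 12 libraries, and 4 of them to at most 3. They were spread over Cyp2c (Cyp2c38, Cyp2c40, Cyp2c44, Cyp2c67), Cyp2d (Cyp2d9, Cyp2d10, Cyp2d12), Cyp2j (Cyp2j5, Cyp2j11, Cyp2j13) and 9 single genes, Cyp1b1, Cyp2a12, Cyp2b19, Cyp2f2, Cyp2t4, Cyp3a59, Cyp4a32, Cyp4f39 and Cyp4x1. In 6 of the 20 subfamilies, Cyp1b, Cyp2a, Cyp2f, Cyp2t, Cyp4a and Cyp4x, no gene was testable. Cyp1b1 led the untested genes with 72 counts, 0 to 12 in a library. Cyp2c38 came next but one, with 24, 12 and 4 counts in the untreated libraries, 2, 4 and 0 with butyrate, 1, 1 and 0 with IL-13, and 0, 0 and 3 with both. Its counts were concentrated in the untreated cultures. Without the filter on low counts, Cyp2c38 fell with IL-13 by 3.46 on the log2 scale (edgeR adjusted p = 0.0208). DESeq2 gave a fall of 3.62 (adjusted p = 0.0395). In each of these settings it was the 1 untested member called, and the other settings were not searched for such members.

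Per kilobase of exon, a scale on which genes can be compared, the highest mean level in untreated enteroids was that of Cyp4f14 at 156.5 CPM per kb. Cyp2c65 (78.7), Cyp3a13 (76.4), Cyp2d26 (62.0), Cyp2j6 (58.0), Cyp2c55 (55.2), Cyp4v3 (50.4), Cyp2c66 (41.1) and Cyp2s1 (39.9) followed, and these 9 genes were the members above 30 CPM per kb. Cyp2b10 (20.7) and Cyp4f16 (16.3) came next. With both agents Cyp4f14 stood at 358.5 CPM per kb, followed by Cyp2j6 (109.2), Cyp3a13 (108.7) and Cyp2s1 (67.7). Cyp2c70, Cyp1a1, Cyp2e1 and Cyp3a11, described below for their large changes, were low-abundance transcripts, with Cyp2c70 at 3.17 CPM per kb untreated.

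**Figure D1:**
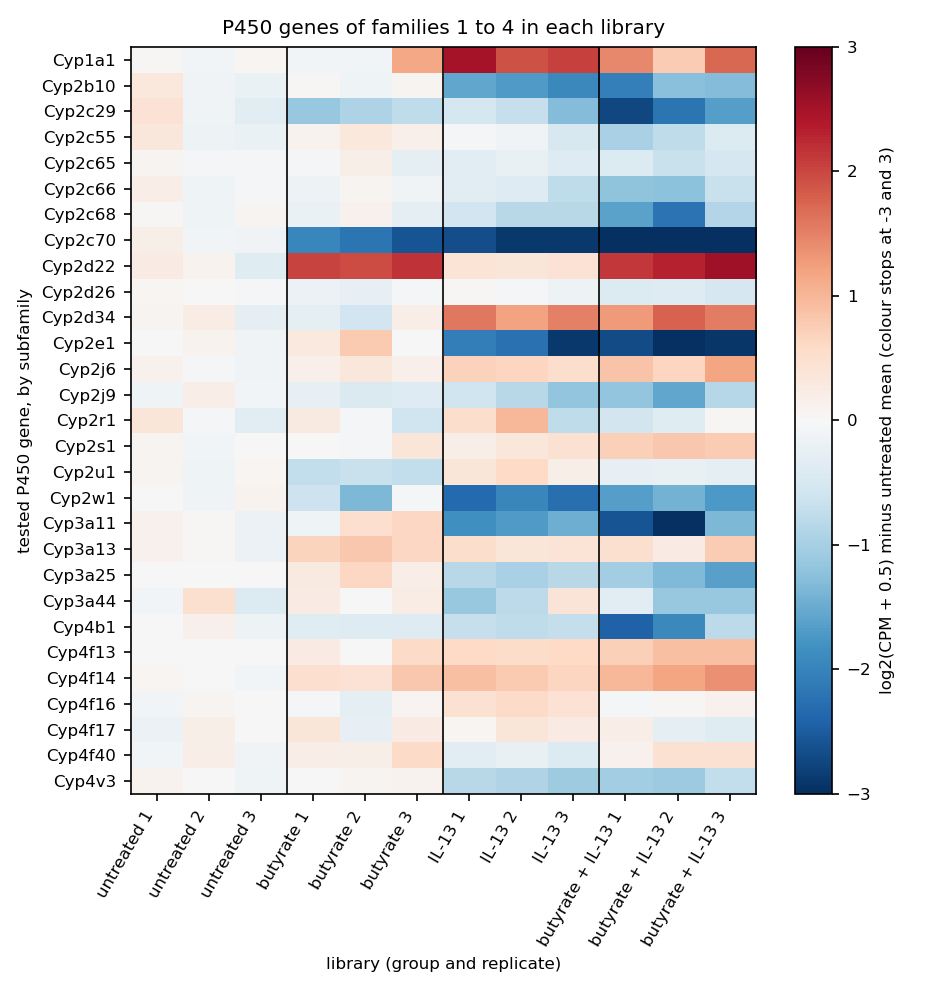
Level of the 29 tested P450 genes (rows, by subfamily) in the 12 libraries (columns), as log2(CPM + 0.5) minus the untreated mean, with colours stopping at -3 and 3. Cyp2c70, Cyp2e1, Cyp2w1 and Cyp3a11 are lower in every IL-13 library than in every untreated library, and Cyp1a1, Cyp2d34 and Cyp4f14 are higher.

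IL-13 changed most of the tested P450 genes, in both directions. Over untreated cultures 22 of 29 passed an adjusted p of 0.05 in edgeR, 9 higher and 13 lower, where 43.5% of all 13750 genes tested were called (21.8% higher and 21.7% lower). The median change of the 29 was -0.31 on the log2 scale against -0.01 over all genes, and 7 of the 29 were called and changed by at least 2-fold, as were 10.1% of all genes. 5 of the 6 tested Cyp2c genes fell, all but Cyp2c55, as did Cyp2b10, Cyp2e1, Cyp2j9, Cyp2w1, Cyp3a11, Cyp3a25, Cyp4b1 and Cyp4v3. Those that rose were Cyp1a1, Cyp2d34, Cyp2j6, Cyp2s1, Cyp2u1, Cyp3a13 and 3 Cyp4f genes. With library totals alone as the scale, which shifted the median of all genes by -0.17, 7 were higher and 16 lower. The authors' deposited table for this comparison listed 23 members at an FDR under 0.05, the 22 called here in the same direction and Cyp2c38.

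Butyrate alone changed fewer of them. Over untreated cultures 6 of 29 were called, 3 higher (Cyp2d22, Cyp3a13, Cyp4f14) and 3 lower (Cyp2c29, Cyp2c70, Cyp2u1), where 7.90% of all genes were called, 5.14% higher and 2.76% lower. The median change was 0.06 against -0.01 over all genes.

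Adding butyrate to IL-13 changed 13 of 29 relative to IL-13 alone, 4 higher and 9 lower, where 21.2% of all genes were called (9.85% higher and 11.3% lower). The median change was -0.45 against -0.01. Cyp2d22, Cyp2s1, Cyp4f14 and Cyp4f40 rose, and Cyp2c29, Cyp2c55, Cyp2c66, Cyp2c68, Cyp2d26, Cyp2u1, Cyp3a25, Cyp4b1 and Cyp4f16 fell. The count was 8 without IL-13 library 1 and 8 without IL-13 library 2, when calls over all genes went from 2912 to 2161 and 2120.

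In the presence of butyrate, IL-13 changed 21 of 29, 6 higher and 15 lower, where 47.7% of all genes were called (22.9% higher and 24.9% lower). The median was -0.59 against -0.04, and 11 of the 29 were called and changed by at least 2-fold, as were 12.9% of all genes. This comparison shares no library with IL-13 over untreated, so the pair can be set side by side: 6 members rose in both, 13 fell in both and 0 went opposite ways. Over all genes tested 17.8% rose in both, 17.4% fell in both and 0.0873% went opposite ways. Cyp2c55 and Cyp2d26 were called lower with butyrate present and not without, and Cyp1a1, Cyp3a13 and Cyp4f16 were called higher without butyrate and not with it. A test of the difference itself, the interaction term, called 0 of 29 members by edgeR's quasi-likelihood test (0.865% of all genes were called, 0.255% higher and 0.611% lower), and 9 had an unadjusted p under 0.05, 2 higher and 7 lower. Cyp3a13 (log2 interaction -0.62 ± 0.15 SE, adjusted p = 0.0707) and Cyp3a25 (-0.87 ± 0.22, adjusted p = 0.0757) came nearest, and DESeq2 called 2 members. Leaving out butyrate library 3 called 2, and leaving out butyrate + IL-13 library 1 or 3 called 1 each.

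**Figure D2:**
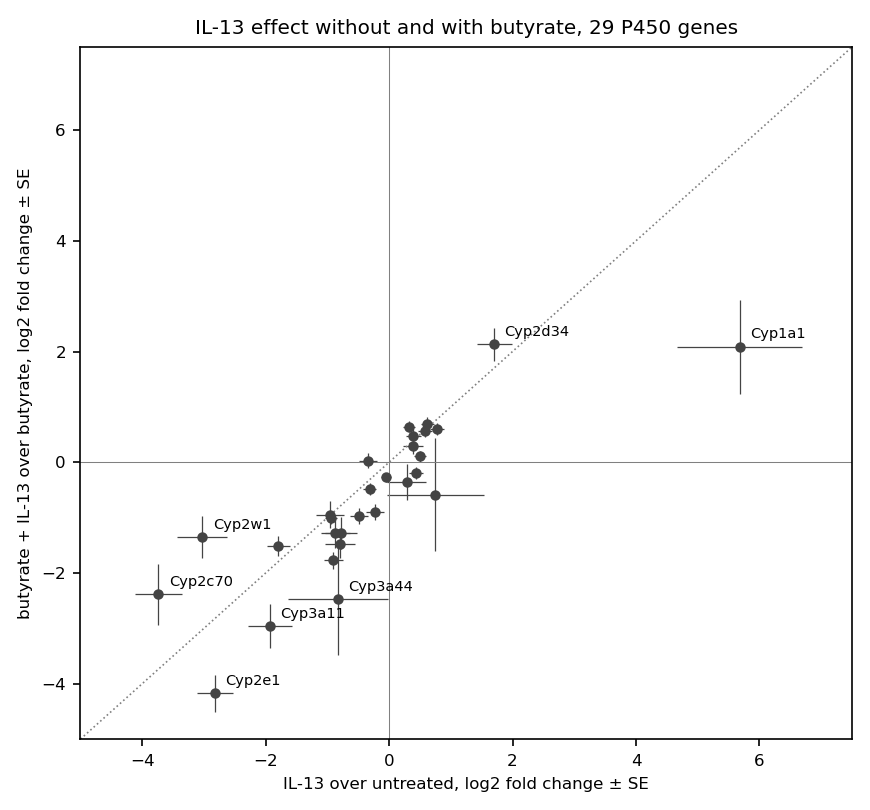
Log2 fold change ± SE of IL-13 over untreated (x axis) and of butyrate + IL-13 over butyrate (y axis) for the 29 tested P450 genes, with the dotted line at equal change. Cyp2e1 and Cyp3a11 lie below the line on the falling side, Cyp2c70 and Cyp2w1 above it, and Cyp1a1 far to the right, while the interaction test called none of the 29.

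Family 1 had a single testable gene, Cyp1a1, the classic target of the aryl hydrocarbon receptor, which oxidises polycyclic aromatic hydrocarbons. Cyp1a1 lies on chromosome 9 (57697613 to 57703822, plus strand). Its promoter is shown because it had the largest fold change of the tested P450 genes: these are the 200 bases before the deposited gene start, chr9:57697413-57697612, plus strand, RefSeq promoter on GRCm38.p6, with capitals marking GCGTG, the core letters of the dioxin response element.
Cyp1a1: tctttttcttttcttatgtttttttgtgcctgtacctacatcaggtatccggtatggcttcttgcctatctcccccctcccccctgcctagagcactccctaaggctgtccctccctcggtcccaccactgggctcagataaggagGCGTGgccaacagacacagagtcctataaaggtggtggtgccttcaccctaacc
Those letters were found on either strand in the 250 bases upstream of 11 of the 41 member genes with a RefSeq promoter, or 25.5% of the members' 47 promoter entries, and in 28.2% of all 32851 promoters. Cyp1a1 had 1, 0 and 1 counts untreated, 0, 0 and 12 with butyrate, 35, 22 and 25 with IL-13, and 12, 5 and 17 with both. Every IL-13 library stood above every untreated one, and the 12 counts with butyrate all came from library 3. In levels, IL-13 cultures had 2.52, 1.51 and 1.70 CPM. Summed over libraries and corrected for depth, the counts were 63.2 times those of untreated cultures (95% interval 17.0 to 531, counting error only), and the fitted change was 5.68 ± 1.01 (adjusted p = 0.000186). The gene entered the test only through the groups in which it was high. Butyrate + IL-13 over butyrate was not called (2.09 ± 0.85, adjusted p = 0.0516), and its fitted value depended on single libraries. It was 1.38 without butyrate library 1 and 1.18 without the 2 libraries highest in Lars2, and was called without butyrate + IL-13 library 2 (2.42, 0.0375) or butyrate library 3 (6.95, 0.000211). The last is set by the fit, since the remaining butyrate libraries held 0 counts.

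In subfamily Cyp2c, 5 of 6 tested genes fell with IL-13, where 21.7% of all genes were called lower. The subfamily lies mostly in a cluster of 9 members that spans 1180 kb of chromosome 19, of which 6 were tested. Cyp2c70, at the end of that cluster, makes the muricholic acids that set mouse bile apart from human bile. Its level was 7.15, 5.87 and 5.82 CPM untreated, 1.25, 0.988 and 0.623 with butyrate, 0.577, 0.412 and 0.408 with IL-13, and 0.237, 0.319 and 0 with both. The untreated libraries stood far above the other 9, and butyrate libraries above the IL-13 ones. Cyp2c70 was 13.4-fold lower with IL-13 (log2 -3.74 ± 0.38, adjusted p = 3.11e-07) and 6.41-fold lower with butyrate (-2.68 ± 0.32, adjusted p = 3.06e-05), comparisons that share the untreated libraries. With butyrate present, the IL-13 difference was -2.39 ± 0.56 (adjusted p = 0.00181), a value resting on 7 counts and moving from -3.02 without butyrate + IL-13 library 2 to -1.76 without library 3. No 50-base stretch of its transcripts recurred in another gene. Hepatocyte markers, given because Cyp2c70 is best known from liver, summed to 3.24 to 3.44 CPM in untreated libraries, 1.45 to 2.24 in butyrate, 1.59 to 2.68 in IL-13 and 2.06 to 3.66 in combined ones, and Alb was at 0.103 to 0.121 CPM in the group means. Their part in the result was not tested.

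The promoters of several Cyp2c genes share the letters CAAAGTCCA, which fit the binding element of the hepatocyte nuclear factor HNF4, a main regulator of enterocyte and liver P450 genes. They are printed to show what these neighbouring promoters have in common. Capitals mark the letters. Cyp2c70 is shown over chr19:40187334-40187486 (minus strand), where the match lies 64 to 56 bases before the RefSeq start, and the others as 59-base windows, Cyp2c40 at chr19:39812826-39812884 (minus), Cyp2c65 at chr19:39060865-39060923 (plus), Cyp2c67 at chr19:39649134-39649192 (minus) and Cyp2c68 at chr19:39741145-39741203 (minus), all RefSeq on GRCm38.p6.
Cyp2c70: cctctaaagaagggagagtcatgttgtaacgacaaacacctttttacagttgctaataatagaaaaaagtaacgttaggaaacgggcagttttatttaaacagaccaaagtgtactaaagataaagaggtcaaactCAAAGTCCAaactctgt
Cyp2c40: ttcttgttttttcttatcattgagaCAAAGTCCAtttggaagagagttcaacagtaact
Cyp2c65: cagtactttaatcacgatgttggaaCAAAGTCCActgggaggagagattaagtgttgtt
Cyp2c67: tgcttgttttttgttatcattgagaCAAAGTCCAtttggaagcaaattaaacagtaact
Cyp2c68: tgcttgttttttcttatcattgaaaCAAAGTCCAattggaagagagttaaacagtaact
On either strand, 6 of the 41 member genes with a promoter entry hold CAAAGTCCA in the 250 bases upstream, these 5 and Cyp3a11. Counted by entry this is 12.8% of the members' 47 promoters, against 0.384% of all 32851. The Cyp3a11 match, 109 to 101 bases before the RefSeq start, lies inside the deposited span of that gene and is not printed. The 59-base windows of Cyp2c40, Cyp2c67 and Cyp2c68 differ from one another at 4 to 6 positions, so their matches are not separate observations. Of the 6, Cyp2c65, Cyp2c68, Cyp2c70 and Cyp3a11 were tested. TTC and GAA with 4 bases between them, the spacing that STAT6 binds, were in 0 member promoters and in 5.85% of all, and the HNF1 half-site GTTAAT in 6 genes, 12.8% of the members' entries and 6.43% of all. A match is a description of letters and not of binding.

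Cyp2c29, an epoxygenase best known from liver, was called lower with each of the agents alone, as Cyp2c70 was. It stood at 29.5, 20.2 and 17.5 CPM untreated, 9.74, 11.2 and 12.7 with butyrate, 14.9, 13.4 and 8.58 with IL-13, and 2.85, 4.38 and 6.58 with both. Every treated library was below every untreated one, and the cultures with both agents were the lowest. The log2 change was -0.87 ± 0.23 with IL-13 (adjusted p = 0.00571), -1.004 ± 0.23 with butyrate (0.00982), -1.41 ± 0.27 for butyrate on top of IL-13 (0.00136) and -1.27 ± 0.27 for IL-13 on top of butyrate (0.000789). Without untreated library 1 the IL-13 and butyrate calls were lost (adjusted p = 0.0523 and 0.0749, ranges over alternatives 0.00117 to 0.0523 and 0.00245 to 0.0749), and without butyrate library 1 the butyrate call was lost (0.0678).

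The abundant intestinal Cyp2c genes moved less. Cyp2c55, which hydroxylates arachidonic acid, was at 138, 97.3 and 94.7 CPM untreated, 117, 135 and 120 with butyrate, 103, 100.2 and 77.9 with IL-13, and 54.8, 63.2 and 80.8 with both. The libraries with both agents were below all libraries without IL-13 and overlapped those with IL-13 alone. They differed by -0.90 ± 0.15 from butyrate (adjusted p = 8.54e-05) and by -0.50 ± 0.15 from IL-13 (0.0255). The latter was lost without IL-13 library 1 or 2, butyrate + IL-13 library 1 or 2, or butyrate library 3, with an adjusted p of up to 0.122. Cyp2c65 was at 159, 149 and 147 CPM untreated, 149, 171 and 124 with butyrate, 120, 129 and 116 with IL-13, and 114, 95.9 and 107 with both. IL-13 libraries were below all untreated ones by -0.31 ± 0.10 (adjusted p = 0.0184), a call lost without untreated library 1 or IL-13 library 1 or 3 (up to 0.0758), and with butyrate present by -0.49 ± 0.10 (0.000795). Cyp2c66, its close copy, was at 91.8, 72.3 and 75.8 CPM untreated, 72.0, 84.2 and 74.2 with butyrate, 63.6, 60.6 and 46.6 with IL-13, and 34.0, 33.4 and 49.7 with both. IL-13 libraries were below all of those without it. Cyp2c66 fell by 0.49 ± 0.14 with IL-13 (adjusted p = 0.00997, lost without untreated library 1 or IL-13 library 3, up to 0.0691), by 0.97 ± 0.15 for IL-13 on top of butyrate (2.74e-05), and by 0.54 ± 0.15 for butyrate on top of IL-13 (0.0144, lost without IL-13 library 1 or 2 or butyrate + IL-13 library 1 or 2, up to 0.0744). Cyp2c65 and Cyp2c66 share 20.6% and 19.5% of their 50-base stretches, mostly with each other, so their reads may have been split between them.

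Cyp2c68 was low, at 9.84, 8.71 and 10.03 CPM untreated, 8.21, 10.4 and 7.82 with butyrate, 6.2005, 5.15 and 5.10 with IL-13, and 2.77, 1.67 and 4.97 with both. IL-13 libraries lay below all of the libraries without it, and the cultures with both agents were lower still. The change was -0.80 ± 0.24 with IL-13 (adjusted p = 0.0109), -1.47 ± 0.26 for IL-13 on top of butyrate (0.000124) and -0.79 ± 0.27 for butyrate on top of IL-13 (0.0462). The last was lost when any of 9 single libraries was left out (untreated 1, 2 or 3, butyrate 1, IL-13 1, 2 or 3, or both 1 or 2) and ranged from 0.00105 to 0.179 over all alternatives. Cyp2c68 shares 43.3% of its 50-base stretches with other genes, mostly Cyp2c40, and is uncertain for that reason. Cyp2c40 itself had 1 count in all. Summed over all 10 members, Cyp2c RNA was 381 ± 48.8 CPM untreated, 370 ± 38.1 with butyrate, 291 ± 31.4 with IL-13 and 219 ± 26.6 with both (SD, n = 3).

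**Figure D3:**
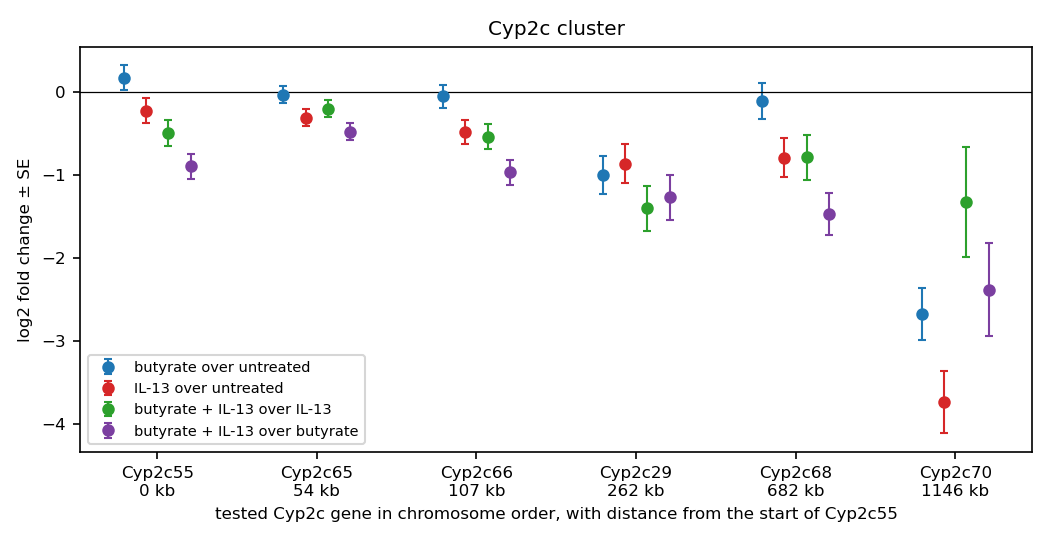
Log2 fold change ± SE of the 6 tested Cyp2c genes in 4 comparisons, in chromosome order with the distance in kb from the start of Cyp2c55. Cyp2c70, at 1146 kb, reaches -3.74 with IL-13, the other 5 genes lie between 0.17 and -1.47 in all 4 comparisons, and butyrate alone lowers Cyp2c29 and Cyp2c70.

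Cyp2e1, Cyp2b10 and Cyp2w1, of family 2, were at least 3-fold lower with IL-13. Cyp2e1, which oxidises ethanol and small solvents, was at 7.78, 8.31 and 7.15 CPM untreated, 9.51, 13.8 and 7.70 with butyrate, 1.44, 1.24 and 0.613 with IL-13, and 0.791, 0.319 and 0.585 with both. The 6 libraries with IL-13 did not overlap the 6 without it. The fall was 7.07-fold without butyrate (log2 -2.82 ± 0.29, adjusted p = 4.66e-07) and 18.04-fold with it (-4.17 ± 0.33, 1.14e-08). Cyp2b10, a target of the constitutive androstane receptor, was at 54.1, 39.7 and 37.2 CPM untreated, 43.9, 39.2 and 46.0 with butyrate, 14.2, 12.8 and 10.8 with IL-13, and 9.96, 17.8 and 17.3 with both. Here too the libraries with and without IL-13 did not overlap, with falls of 3.46-fold (-1.79 ± 0.18, adjusted p = 3.36e-07) and 2.86-fold (-1.52 ± 0.18, 1.79e-06). Cyp2w1, a P450 known for its expression in fetal gut and in tumours, was at 3.83, 3.52 and 4.16 CPM untreated, 2.31, 1.20 and 3.68 with butyrate, 0.360, 0.618 and 0.408 with IL-13, and 0.870, 1.12 and 0.805 with both. All 6 libraries with IL-13 were below the 6 without it. Its fall was 8.15-fold without butyrate (-3.03 ± 0.41, adjusted p = 9.92e-06) and 2.55-fold with it (-1.35 ± 0.38, 0.00735).

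**Figure D4:**
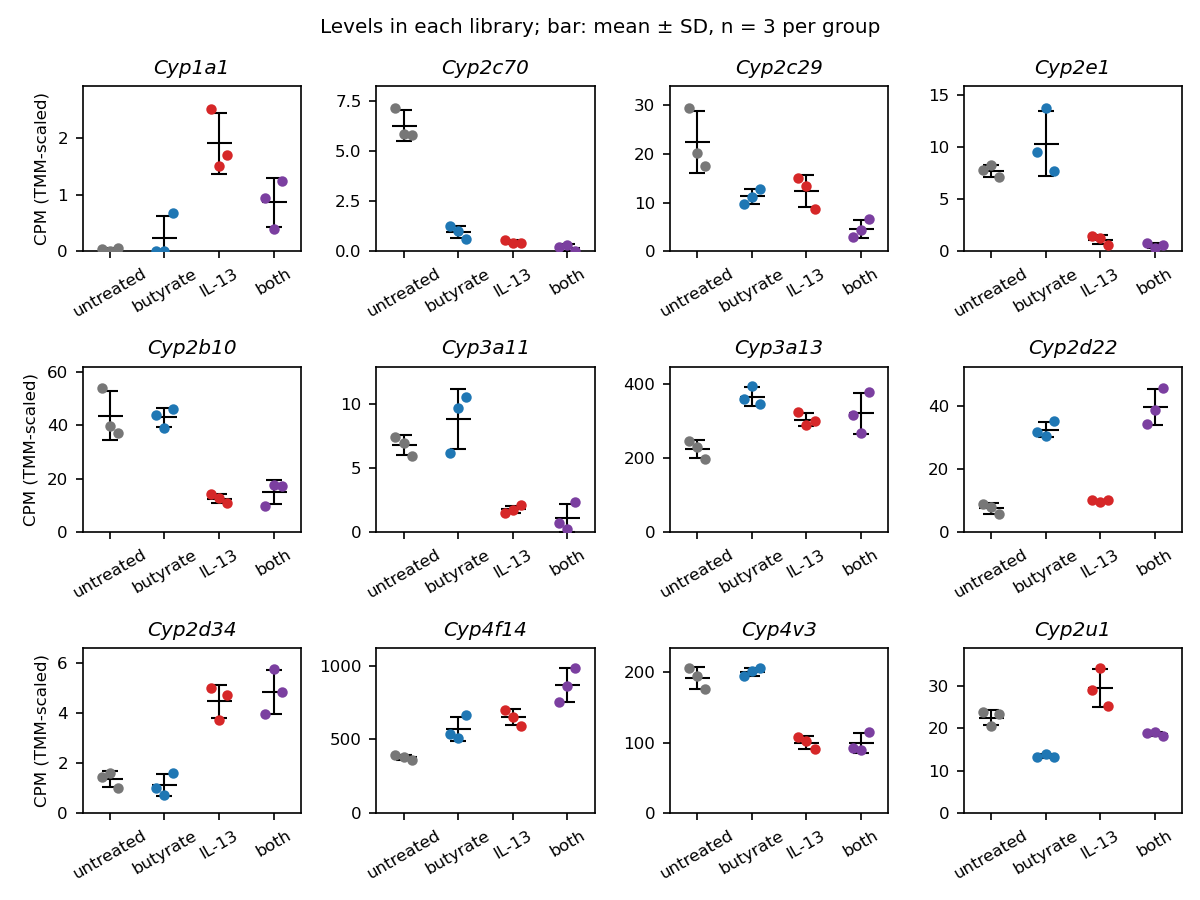
TMM-scaled CPM of 12 P450 genes in each library (points), with the group mean and SD (bars, n = 3), in untreated, butyrate, IL-13 and combined cultures ("both"). IL-13 libraries of Cyp2e1, Cyp2b10 and Cyp4v3 sit below all libraries without IL-13, and butyrate libraries of Cyp2d22 sit above all libraries without butyrate.

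Subfamily Cyp3a, the main drug- and steroid-oxidising P450s of liver and gut, split. Cyp3a13, its most abundant member here per kilobase, was at 247, 232 and 199 CPM untreated, 359, 396 and 346 with butyrate, 324, 290.3 and 300.1 with IL-13, and 316, 269 and 379 with both. All treated libraries were above all untreated ones. It rose by 0.43 ± 0.11 with IL-13 (adjusted p = 0.00384) and 0.70 ± 0.11 with butyrate (0.000458), and with both agents it stood at 0.08 from IL-13 (0.673) and -0.19 from butyrate (0.158). Cyp3a11, the pregnane X receptor target of liver, was at 7.44, 6.97 and 5.93 CPM untreated, 6.18, 9.72 and 10.6 with butyrate, 1.51, 1.72 and 2.11 with IL-13, and 0.712, 0.239 and 2.34 with both. Libraries with and without IL-13 did not overlap. Cyp3a11 was 3.80-fold lower with IL-13 (-1.93 ± 0.36, adjusted p = 0.000303) and 7.77-fold lower for IL-13 on top of butyrate (-2.96 ± 0.39, 6.43e-06). Butyrate + IL-13 library 3 was the highest of its group, and without it the latter was -4.16, and butyrate on top of IL-13, not called at -0.66 (adjusted p = 0.347), was called at -1.87 (0.0151). Cyp3a25 was at 18.7, 18.6 and 18.3 CPM untreated, 22.5, 28.9 and 21.5 with butyrate, 10.2, 9.27 and 10.2 with IL-13, and 8.70, 7.09 and 5.63 with both. The libraries with IL-13 were again all below those without. Cyp3a25 fell by 0.90 ± 0.15 with IL-13 (adjusted p = 9.22e-05) and by 1.77 ± 0.16 for IL-13 on top of butyrate (4.36e-08). Butyrate on top of IL-13 gave -0.48 ± 0.17 at an adjusted p of 0.04996, a call lost in 15 of 21 alternatives, among them leaving out any of the 3 untreated or 3 IL-13 libraries, butyrate library 1 or butyrate + IL-13 library 2 or 3 (up to 0.254). Of its 50-base stretches, 26.8% recur in other genes, mostly Cyp3a59, which had 12 counts in all. Cyp3a44 was at 0 to 1.053 CPM and was called in no comparison.

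Subfamily Cyp2d held the member with the smallest adjusted p for butyrate. Cyp2d22, a relative of the human enzyme that oxidises codeine and many antidepressants, was at 8.91, 8.06 and 5.71 CPM untreated, 31.8, 30.5 and 35.1 with butyrate, 10.1, 9.68 and 10.2 with IL-13, and 34.2, 38.8 and 45.5 with both. The 6 libraries with butyrate did not overlap the 6 without it. Cyp2d22 was 4.25-fold higher with butyrate (2.09 ± 0.15, adjusted p = 1e-07) and 3.95-fold higher for butyrate on top of IL-13 (1.98 ± 0.15, 1.67e-07). With IL-13 alone Cyp2d22 changed by 0.39 ± 0.16 and was not called (adjusted p = 0.0526). Its IL-13 libraries all lay above the untreated ones, and 8 of 21 alternatives called the rise. For IL-13 on top of butyrate it changed by 0.29 ± 0.13 (0.0893). Cyp2d34 was at 1.43, 1.62 and 0.998 CPM untreated, 1.02, 0.728 and 1.59 with butyrate, 4.97, 3.71 and 4.70 with IL-13, and 3.95, 5.73 and 4.83 with both. The 6 libraries with IL-13 were above the 6 without it. Cyp2d34 was 3.25-fold higher with IL-13 (1.70 ± 0.28, adjusted p = 9.69e-05) and 4.39-fold higher for IL-13 on top of butyrate (2.13 ± 0.30, 1.04e-05). Cyp2d26, the most abundant of the 3 per kilobase, was at 115, 109 and 108 CPM untreated, 97.5, 92.8 and 107 with butyrate, 114, 109 and 101 with IL-13, and 83.2, 85.1 and 77.5 with both. The cultures with both agents were below the rest, by -0.40 ± 0.08 from IL-13 (adjusted p = 0.00249) and -0.27 ± 0.08 from butyrate (0.0107, lost without butyrate + IL-13 library 3 at 0.07). The Cyp2d sum, made up mostly of Cyp2d26, was 120 ± 5.29 CPM untreated, 133 ± 9.89 with butyrate, 123 ± 7.03 with IL-13 and 127 ± 4.46 with both.

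Among the fatty acid epoxygenases and hydroxylases of family 2, Cyp2j6 and Cyp2j9 went opposite ways. Cyp2j6, the abundant intestinal member of its subfamily, was at 229, 205 and 194 CPM untreated, 232, 263 and 233 with butyrate, 337, 327 and 301 with IL-13, and 377, 327 and 477 with both. Every library with IL-13 was above every library without it, and IL-13 raised Cyp2j6 by 0.62 ± 0.11 (adjusted p = 0.000207), and by 0.70 ± 0.11 on top of butyrate (5.17e-05). Cyp2j9 was at 5.34, 6.77 and 5.54 CPM untreated, 4.89, 4.21 and 4.36 with butyrate, 3.68, 3.09 and 2.31 with IL-13, and 2.29, 1.67 and 3.00 with both. The libraries with IL-13 were all below those without. Cyp2j9 fell by 0.96 ± 0.23 (adjusted p = 0.00217) and by 0.95 ± 0.24 on top of butyrate (0.00355). Cyp2u1, which hydroxylates long-chain fatty acids, was at 23.8, 20.4 and 23.3 CPM untreated, 13.2, 13.9 and 13.1 with butyrate, 28.98, 34.3 and 25.3 with IL-13, and 18.9, 19.1 and 18.2 with both. Butyrate libraries were lower and IL-13 libraries higher than all untreated ones. Cyp2u1 fell by 0.74 ± 0.12 with butyrate (adjusted p = 0.00062) and by 0.65 ± 0.12 for butyrate on top of IL-13 (0.000963), and rose by 0.39 ± 0.12 with IL-13 (0.0114) and by 0.48 ± 0.12 for IL-13 on top of butyrate (0.0038). Both rises were lost with library totals alone as the scale (0.129 and 0.0964), and the first also without untreated library 2 or IL-13 library 2 (0.0681 and 0.0963). An antisense gene overlaps Cyp2u1, and no source used here says whether the counting used strand. Genes on the opposite strand also overlap Cyp2s1 and Cyp2c55, and genes on the same strand overlap Cyp2c29, Cyp3a13 and Cyp4v3. Cyp2s1, an epithelial P450, was at 209, 185 and 197 CPM untreated, 198, 193 and 253 with butyrate, 221, 249 and 271 with IL-13, and 326, 344 and 333 with both. The 3 libraries with both agents were the highest of all 12. Cyp2s1 rose by 0.64 ± 0.10 for IL-13 on top of butyrate (adjusted p = 4.56e-05), by 0.44 ± 0.10 for butyrate on top of IL-13 (0.00493) and by 0.33 ± 0.10 with IL-13 (0.0144), the last lost with library totals alone (0.202) and without untreated library 2 (0.0711) or IL-13 library 3 (0.0883). Cyp2r1, which makes 25-hydroxyvitamin D, was at 0 to 1.17 CPM and was called in no comparison.

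In family 4, 3 of 5 tested Cyp4f genes rose with IL-13, while Cyp4v3 and Cyp4b1 fell. Of all genes tested, 21.8% were higher and 21.7% lower. Cyp4f14, which inactivates leukotriene B4, was the most abundant P450 of the set per kilobase in all 4 groups. It was at 396, 382 and 358 CPM untreated, 536, 512 and 667 with butyrate, 703, 651 and 594 with IL-13, and 756, 859 and 987 with both. Every treated library was above every untreated one, and all 3 libraries with both agents were above the other 9. The rise was 0.78 ± 0.11 with IL-13 (adjusted p = 1.49e-05), 0.59 ± 0.11 with butyrate (0.00175), 0.60 ± 0.11 for IL-13 on top of butyrate (0.000174) and 0.42 ± 0.11 for butyrate on top of IL-13 (0.0102). The last was lost without IL-13 library 3 (0.0633) or butyrate + IL-13 library 3 (0.0552), over a range of 0.00131 to 0.0633. Cyp4f13 was at 46.9, 47.6 and 46.3 CPM untreated, 55.5, 47.4 and 70.0 with butyrate, 70.9, 69.1 and 71.3 with IL-13, and 77.9, 87.9 and 88.6 with both. Libraries with IL-13 were above all untreated ones, while butyrate library 3 reached into their range. Cyp4f13 rose by 0.59 ± 0.11 with IL-13 (adjusted p = 0.000337) and by 0.56 ± 0.11 on top of butyrate (0.000425). Cyp4f16 was at 47.0, 52.4 and 50.3 CPM untreated, 48.3, 41.6 and 53.2 with butyrate, 68.3, 75.0 and 68.1 with IL-13, and 48.6, 51.0 and 54.3 with both. IL-13 alone set it above all other libraries, by 0.50 ± 0.10 over untreated (adjusted p = 0.00043), and adding butyrate lowered it by 0.46 ± 0.10 (0.00292). Of its 50-base stretches, 17.4% recur elsewhere, mostly in Cyp4f37. Cyp4f40 was at 15.1, 18.6 and 14.9 CPM untreated, 18.5, 18.1 and 24.3 with butyrate, 12.8, 13.6 and 11.98 with IL-13, and 17.6, 22.4 and 22.1 with both, and rose when butyrate was added to IL-13 (0.70 ± 0.15, adjusted p = 0.00286). Its IL-13 libraries all lay below the untreated ones. That change of -0.34 ± 0.15 was not called (adjusted p = 0.0692), and 3 of 21 alternatives called it. Cyp4f17 was at 1.17 to 2.27 CPM and was called in no comparison.

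Cyp4v3, a fatty acid hydroxylase, was at 205, 194 and 175 CPM untreated, 194, 202 and 205 with butyrate, 108, 102 and 90.5 with IL-13, and 92.8, 89.3 and 115 with both. The 6 libraries with IL-13 did not overlap the 6 without it, and the fall was 1.92-fold (-0.94 ± 0.10, adjusted p = 5.7e-07), and 2.02-fold on top of butyrate (-1.01 ± 0.10, 1.7e-07). Cyp4v3 overlaps Klkb1 and Gm45753 on the same strand, so reads could have been shared with them. Cyp4b1 was at 9.92, 10.9 and 8.81 CPM untreated, 7.59, 7.38 and 7.42 with butyrate, 5.91, 5.56 and 5.79 with IL-13, and 1.42, 2.23 and 5.49 with both. Its IL-13 libraries were below all libraries without IL-13. It fell by 0.78 ± 0.26 with IL-13 (adjusted p = 0.0212), a call lost without untreated library 2 or any 1 of the IL-13 libraries (up to 0.0772), and by 1.27 ± 0.29 on top of butyrate (0.00145), or by 2.00 without butyrate + IL-13 library 3. Butyrate on top of IL-13 gave -0.90 ± 0.30 (0.042), lost in 11 of 21 alternatives, including leaving out any untreated or IL-13 library, butyrate library 1 or butyrate + IL-13 library 1 or 2 (up to 0.163), and -1.63 without butyrate + IL-13 library 3.

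By subfamily, summed RNA of the 6 Cyp4f members was 493 ± 18.9 CPM untreated, 699 ± 104 with butyrate, 805 ± 54.6 with IL-13 and 1025.5 ± 125 with both. The 5 Cyp2j members summed to 215 ± 17.5, 247 ± 17.7, 325 ± 19.3 and 396 ± 77.003 CPM in the same order, and Cyp3a to 252 ± 25.4, 401 ± 30.4, 317 ± 17.6 and 330 ± 55.3. Most of each sum came from 1 gene, Cyp4f14, Cyp2j6 and Cyp3a13. Scaled by library totals alone, Cyp4f with IL-13 was 1.45 times the untreated sum in place of 1.63 times, Cyp2j 1.34 in place of 1.51 and Cyp3a 1.12 in place of 1.26, while Cyp2d went from 1.02 to 0.909 times. The sum of all 48 members was 1939 ± 141 CPM untreated, 2343 ± 106 with butyrate, 2260.5 ± 109 with IL-13 and 2570.5 ± 277 with both.

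**Figure D5:**
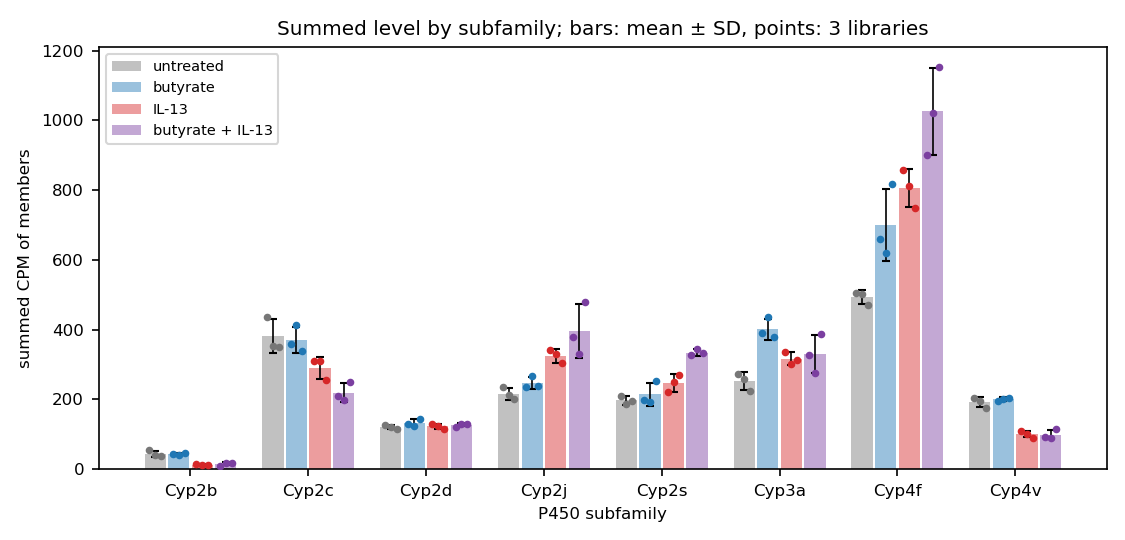
Summed CPM of the members of 8 P450 subfamilies (bars, mean ± SD, n = 3; points, libraries) in the 4 groups. Cyp4f rises from 493 CPM untreated to 1025.5 with both agents, while Cyp2c goes from 381 to 219.

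Genes of P450 electron supply, heme turnover and regulation were read from lists, whose counts can be set against the shares of all genes called: 21.8% higher and 21.7% lower with IL-13, 5.14% and 2.76% with butyrate, 9.85% and 11.3% for butyrate on top of IL-13, and 22.9% and 24.9% for IL-13 on top of butyrate. Of 20 genes of electron supply and of heme synthesis, binding or breakdown, 7 were higher and 2 lower with IL-13, 3 and 0 with butyrate, 6 and 0 for butyrate on top of IL-13, and 9 and 3 for IL-13 on top of butyrate. The 6 were Por, Cyb5r1, Pgrmc1 and the heme breakdown genes Hmox1, Hmox2 and Blvrb. Hmox1 and Hmox2 were also among the 7, and Hmox1 among the 3. Over the 20, the median change with IL-13 was 0.02, against -0.01 over all genes. Por, the electron donor of all microsomal P450s, was at 162 ± 4.13 CPM untreated, 219 ± 39.6 with butyrate, 249 ± 20.7 with IL-13 and 317 ± 20.7 with both (SD, n = 3), and rose in all 4 comparisons (IL-13 over untreated 0.62 ± 0.11, adjusted p = 0.000131). Cpox, of heme synthesis, rose with IL-13 by 0.73 ± 0.09 (4.98e-06), and Hmox1, which degrades heme, by 1.12 ± 0.15 (9.85e-06).

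Among 19 tested transcriptional regulators of P450 genes, 4 were higher and 5 lower with IL-13, near the 21.8% and 21.7% of all genes, 0 and 1 with butyrate, 4 and 0 for butyrate on top of IL-13, and 7 and 4 for IL-13 on top of butyrate. With IL-13 the median change was -0.02. Vdr, the vitamin D receptor, fell by 0.59 ± 0.08 with IL-13 (adjusted p = 6.11e-06), and Ppara, the fatty acid receptor that drives family 4 genes in liver, by 1.05 ± 0.20 (0.000399). Nr1h4, the bile acid receptor, rose by 0.63 ± 0.10 (4.74e-05). The receptors named above for families 1 to 3 were not called for IL-13 over untreated: Ahr changed by 0.15 ± 0.12 (0.328), Nr1i2 by -0.02 ± 0.09 (0.888) and Nr1i3 by -0.12 ± 0.07 (0.218). For IL-13 on top of butyrate Ahr rose by 0.33 ± 0.12 (adjusted p = 0.0302), and Nr1i2 (-0.05 ± 0.09, 0.681) and Nr1i3 (0.05 ± 0.07, 0.594) were not called. Tiparp, listed with Ahr, changed by 0.19 ± 0.12 with IL-13, not called (0.22), and rose by 0.34 ± 0.12 on top of butyrate (0.0275). Ahrr, also listed, had 72 counts in all and was not tested. Whether the receptor had a part in the Cyp1a1 change was not tested. Hnf4a was at 2007 ± 64.8 CPM untreated and 2299 ± 74.1 with IL-13 (0.20 ± 0.07, adjusted p = 0.0321). On top of butyrate, IL-13 raised Hnf4a by 0.47 ± 0.07 (3.03e-05). Hnf4g, of the same list, went the other way. It changed by -0.24 ± 0.13 with IL-13, not called (0.158), and fell by 0.79 ± 0.14 for IL-13 on top of butyrate (0.000107).

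Other oxidising and hydrolysing enzymes of the same tissue were counted for comparison. Of 14 tested epoxide hydrolases, flavin monooxygenases and carboxylesterases, 0 were higher and 8 lower with IL-13 (median -0.48), and 0 and 7 for IL-13 on top of butyrate. Ces2e, a carboxylesterase that cleaves ester drugs, went from 152 ± 8.66 to 58.7 ± 4.89 CPM (-1.37 ± 0.11, adjusted p = 2.71e-08), and Ces2a from 18.5 ± 0.917 to 3.08 ± 0.534 CPM (-2.58 ± 0.27, 5.47e-07). Butyrate alone raised 1 of the 14 and lowered 1 (5.14% and 2.76% of all genes). Butyrate on top of IL-13 raised 3 and lowered 1 (9.85% and 11.3% of all genes). Of 8 tested P450s outside families 1 to 4, 0 rose and 1 fell with IL-13 (median -0.37), Cyp39a1, an oxysterol hydroxylase (-1.36 ± 0.15, adjusted p = 9.83e-07). For IL-13 on top of butyrate, 0 of the 8 rose and 4 fell (median -0.69).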

How the data were processed

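The deposited table gave whole-number counts per gene for 12 libraries in 18092 rows, which became 18068 genes after rows of 1 name were summed. Per the submitters' processing notes the build was mm10; no source used here names the aligner, the counter or the strand setting. The authors also deposited log2 fold changes and FDR-adjusted p-values for IL-13 over untreated, used only where named. Counts were fitted with edgeR 4.0.16 (R 4.3.3): TMM scaling, filterByExpr (13750 genes kept), robust quasi-likelihood fit over all 12 libraries with 1 coefficient per group, Benjamini-Hochberg adjustment over all genes tested, called under 0.05. Dispersion amounted to a biological coefficient of variation of 10.2%, the fit left 8 residual degrees of freedom, and it was tested on simulated data. Errors of log2 changes are standard errors; intervals cover counting error only. Members and lists were chosen with earlier results of these data known. Every member called at least once has its value in each library, and list genes are those of smallest adjusted p. Ahr, Ahrr, Tiparp, Nr1i2, Nr1i3, Hnf4a and Hnf4g were added after their values were seen. Levels per kilobase and shared 50-base stretches used GENCODE M21 exons in place of RefSeq coding lengths, which were not used here. Promoters are RefSeq (GRCm38.p6), found for 41 of 48 members. Alternatives were other scalings, filters, DESeq2 1.42.0, a replicate block, thinned counts, and leaving libraries out.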

Additional observations from a re-analysis of the deposited data

How the results depend on the processing

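Genes called by edgeR that stayed called in every alternative that tested them numbered 16 of 22 for IL-13 over untreated, 5 of 6 for butyrate, 7 of 13 for butyrate on top of IL-13 and 19 of 21 for IL-13 on top of butyrate. No called value changed sign in any alternative run. The alternative filter, a mean of at least 50 counts, removed Cyp1a1, Cyp2c70, Cyp2d34 and Cyp2w1, so their calls were not tested under it. Leaving out 1 library at a time gave 8 to 15 genes for butyrate on top of IL-13 and 0 to 2 for the interaction. For the interaction, library totals alone and leaving out the 2 libraries highest in Lars2 called 1 gene each, and DESeq2 and no filter on low counts called 2 each. The cause was not tested. With the replicate block, 22, 6, 11, 22 and 0 genes were called for IL-13 over untreated, butyrate over untreated, butyrate on top of IL-13, IL-13 on top of butyrate and the interaction. No sign of pairing by replicate number was seen: 0 of 18 same-numbered pairs had deviations correlated above 0.1 (-0.151 to 0.0965, against -0.215 to 0.168 for other pairs). With 3 libraries per group this cannot tell whether same-numbered libraries shared a culture or animal. At these depths 19 members had too few counts to be tested, and members near 1 CPM, such as Cyp2r1 and Cyp3a44, rest on few counts.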
